A study of Trichoderma reesei QM6a with 6 samples.

Results

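Xpp1, BglR, Vib1, the homologue of Clr2 and Are1 are transcription factors that in filamentous fungi act on the genes of carbohydrate-degrading enzymes or on nitrogen use. Their transcripts were followed here in Trichoderma reesei, an ascomycete used in industry to make plant cell wall-degrading enzymes, with and without the gene of the repressor Ace1. The 5 genes were taken by locus tag: xpp1 (TRIREDRAFT_122879), bglR (TRIREDRAFT_52368), vib1 (TRIREDRAFT_54675), the clr2 homologue (TRIREDRAFT_26163, called clr2 below) and are1 (TRIREDRAFT_76817). All 5 were found among the 9113 genes of the deposited table, and all 5 were among the 7769 genes tested. The reference table gives none of them a symbol, so the names come from the choice of the genes and not from the files.

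Poly(A) RNA of 6 mycelial samples was sequenced with a stranded protocol. Of these, 3 were the wild-type strain QM6a and 3 were Δace1, the same strain without ace1. Every sample had grown in shake flasks for 24 h on 1% D-glucose in MA medium at 28 °C and 250 rpm, and was then washed and kept for 3 h on 1% D-mannitol in the same medium. The labels name no cellulase inducer, and they do not say how many deletion transformants were used or whether replicates were separate cultures. The p-values therefore measure the spread between these samples, which may be technical.

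The libraries held 5482552 to 6938203 estimated counts. The ace1 transcript had 6 to 14 counts in the Δace1 libraries and 7765 to 8432 in the QM6a libraries, in keeping with the genotype on every label. Transcripts of pks4, a conidial pigment gene that marks spores, were at 7, 8 and 12 counts without ace1 against 4, 8 and 5 in the wild type, and the part of conidia in the results was not tested. Levels are given as CPM, counts divided by a library size that the TMM method adjusts, for comparing strains, or as deposited TPM (transcript abundance corrected for length), for comparing genes. A change is the log2 of Δace1 over QM6a with its standard error. A gene was called where edgeR's quasi-likelihood test gave a Benjamini-Hochberg adjusted p below 0.05 over all tested genes.

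Xpp1 is known in T. reesei as a repressor that binds xylanase promoters. BglR is a regulator of beta-glucosidase genes, whose products split cellobiose. Vib1 and Clr2 are best known from Neurospora crassa, where VIB-1 acts in glucose signalling and in incompatibility between strains, and where CLR-2 activates cellulase genes. Are1 is the GATA factor of nitrogen use, the counterpart of AreA in Aspergillus and NIT2 in Neurospora.

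The transcripts of the repressor gene xpp1 and of vib1 fell in Δace1, whereas those of bglR and clr2 rose. With TMM scaling the fall was 3.23-fold for xpp1 and 4.52-fold for vib1, and the rise was 1.94-fold for bglR. These sizes depend on the scaling. As log2 changes, xpp1, vib1 and bglR were at -1.69, -2.18 and 0.96 with TMM. On log2(TPM + 1) they were at -0.88, -1.30 and 1.72. The clr2 transcript was almost absent from QM6a, with 3 counts in all libraries together, and had 75 in Δace1. For are1 the direction depended on how the libraries were scaled. With TMM scaling all 5 genes were called, 2 higher and 3 lower, and in none did the CPM values of the strains overlap. Most genes differed between these strains: 80.8% of the tested genes were called, 41.2% higher and 39.5% lower in Δace1, and in 82.2% the strains did not overlap. That all 5 were called is therefore close to the background, and the sizes and directions below carry the description. In RNA of whole mycelium, fewer cells with a transcript and less of it per cell cannot be told apart.

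**Figure D1:**
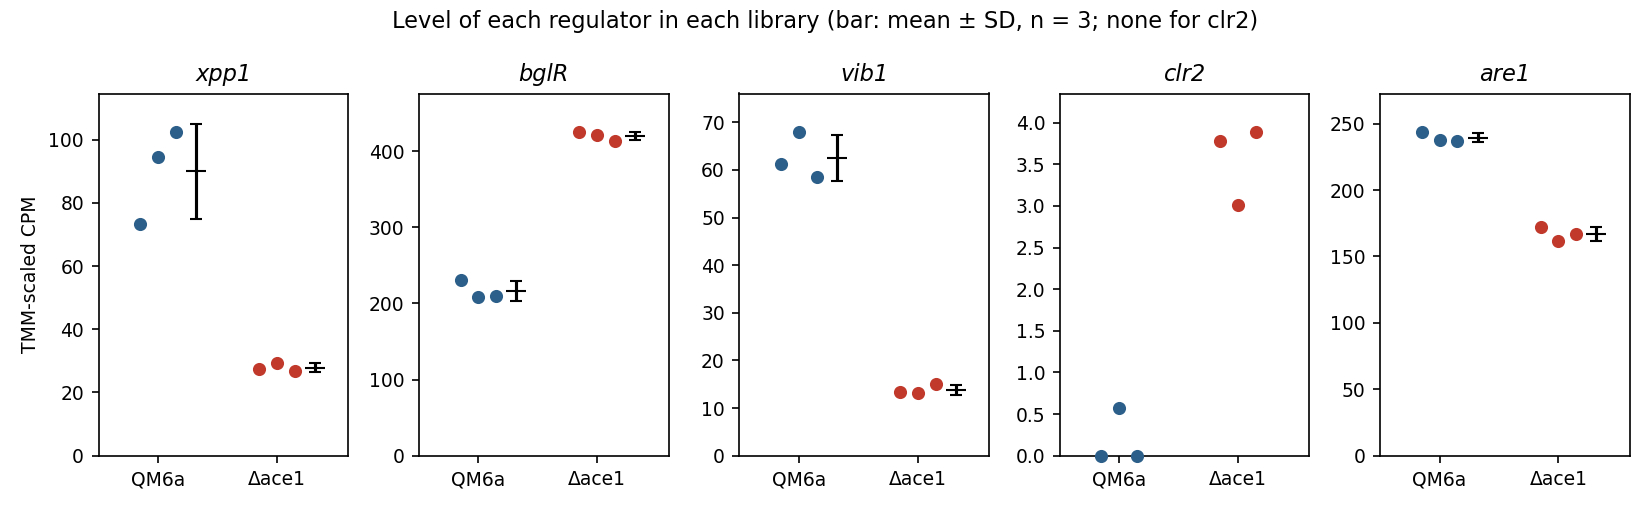
TMM-scaled CPM of xpp1, bglR, vib1, clr2 and are1 in each of the 3 QM6a (blue) and 3 Δace1 (red) libraries, with the mean and SD beside the points; each panel has its own linear axis from 0, and clr2 has no mean because 2 QM6a libraries have no count. With this scaling xpp1 and vib1 lie lower in all Δace1 libraries and bglR and clr2 higher, while are1 lies lower here and not with every scaling.

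The xpp1 transcript had 73.3, 94.5 and 102 CPM in QM6a and 27.4, 29.4 and 26.7 CPM in Δace1. The Δace1 libraries lay close together, whereas QM6a replicate 1 was lower than the other two QM6a libraries. The mean fell from 90.0 ± 15.02 to 27.8 ± 1.39 CPM (SD over 3 libraries per strain), which is -1.69 ± 0.11 (SE) as a log2 change (edgeR quasi-likelihood test, adjusted p = 9.79e-10). The log2 SD of xpp1 among the QM6a libraries was 0.25, larger than that of 89.8% of the genes with a mean of at least 10 CPM. In Δace1 it was 0.07, larger than that of 34.3%.

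The vib1 transcript had 61.1, 67.9 and 58.5 CPM in QM6a and 13.3, 13.2 and 15.1 CPM in Δace1. Every Δace1 library was far below every QM6a library, and the spread within each strain was small beside that gap. The mean fell from 62.5 ± 4.86 to 13.9 ± 1.06 CPM (SD over 3 libraries per strain), which is -2.18 ± 0.11 (SE) as a log2 change (edgeR quasi-likelihood test, adjusted p = 7.02e-12). Only 5.2% of the tested genes had a lower log2 change than vib1, and 8.8% had a lower one than xpp1.

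The bglR transcript had 231, 209 and 209 CPM in QM6a and 425, 422 and 414 CPM in Δace1. The Δace1 libraries agreed closely, with a log2 SD of 0.02 that was smaller than that of all but 3.3% of the genes with a mean of at least 10 CPM. The mean rose from 216.6 ± 12.7 to 420.3 ± 5.56 CPM (SD over 3 libraries per strain), which is 0.96 ± 0.06 (SE) as a log2 change (edgeR quasi-likelihood test, adjusted p = 3.72e-10). This rise was moderate among these libraries, since 75.8% of the tested genes had a lower log2 change.

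The clr2 homologue was seen with 0, 3 and 0 counts in the QM6a libraries and with 29, 21 and 25 in those of Δace1. A count of 0 allows a level of up to 0.432 CPM of the library total in QM6a replicate 1 and 0.483 CPM in replicate 3, for counting error only. The Δace1 libraries held 3.78, 3.01 and 3.88 CPM, so the transcript was low in this strain too. With TMM scaling the pooled ratio of Δace1 to QM6a was 19.1, with a 95% exact counting interval of 6.30 to 94.9. With library totals it was 27.1, with an interval of 8.92 to 134.3. These intervals cover counting error only and leave out the spread between libraries. The difference was called (edgeR, adjusted p = 5.97e-06), but clr2 passed the filter on low counts only through its Δace1 libraries, so a gene tested in this way had to differ. Its fitted log2 change of 4.12 rests on QM6a replicate 2, the QM6a library with counts, and was 7.52 without it.

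The are1 transcript had 244, 238 and 237 CPM in QM6a and 172, 162 and 167 CPM in Δace1. With this scaling the mean fell from 239.5 ± 3.45 to 167 ± 5.36 CPM (SD over 3 libraries per strain), which is -0.52 ± 0.06 (SE) as a log2 change (edgeR quasi-likelihood test, adjusted p = 6.79e-07). The raw counts were 1382, 1236 and 1250 in QM6a and 1323, 1128 and 1074 in Δace1. As a share of library totals the strains were level, at -0.02 ± 0.07 (SE) on the log2 scale (edgeR quasi-likelihood test, adjusted p = 0.78). On the TPM scale are1 was higher in Δace1, at 67.7, 63.0 and 62.0 TPM against 53.0, 54.6 and 54.2, a change of 0.25 on log2(TPM + 1) (limma, adjusted p = 0.00734). The replicates of each strain were close together on each of these scales.

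The other 4 genes kept their direction and call under 5 scalings, namely TMM, RLE, upper quartile, library totals and log2(TPM + 1). Of all tested genes 57.3% did so, 40.4% as higher and 16.9% as lower in Δace1. The calls of clr2 add no support here, since it was tested only through its Δace1 counts and so had to differ. The median change of all genes was 0.03 with TMM, 0.19 with upper-quartile scaling, 0.53 with library totals and 0.76 on log2(TPM + 1). Library scaling shifts all genes of the fit alike, so a gene's distance from that median is nearly fixed by construction and adds no support of its own. The change of xpp1 minus the median was -1.72 with TMM and -1.73 with library totals, that of vib1 -2.21 and -2.21, that of bglR 0.92 and 0.92, and that of are1 -0.55 and -0.55. On log2(TPM + 1) these differences were -1.64, -2.06, 0.96 and -0.51. That of clr2 went from 4.08 with TMM to 0.80 on log2(TPM + 1), where the added 1 is large beside its TPM. On log2(TPM + 1) the fall of xpp1 was -0.88 and that of vib1 -1.30, while the rise of bglR was 1.72.

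**Figure D2:**
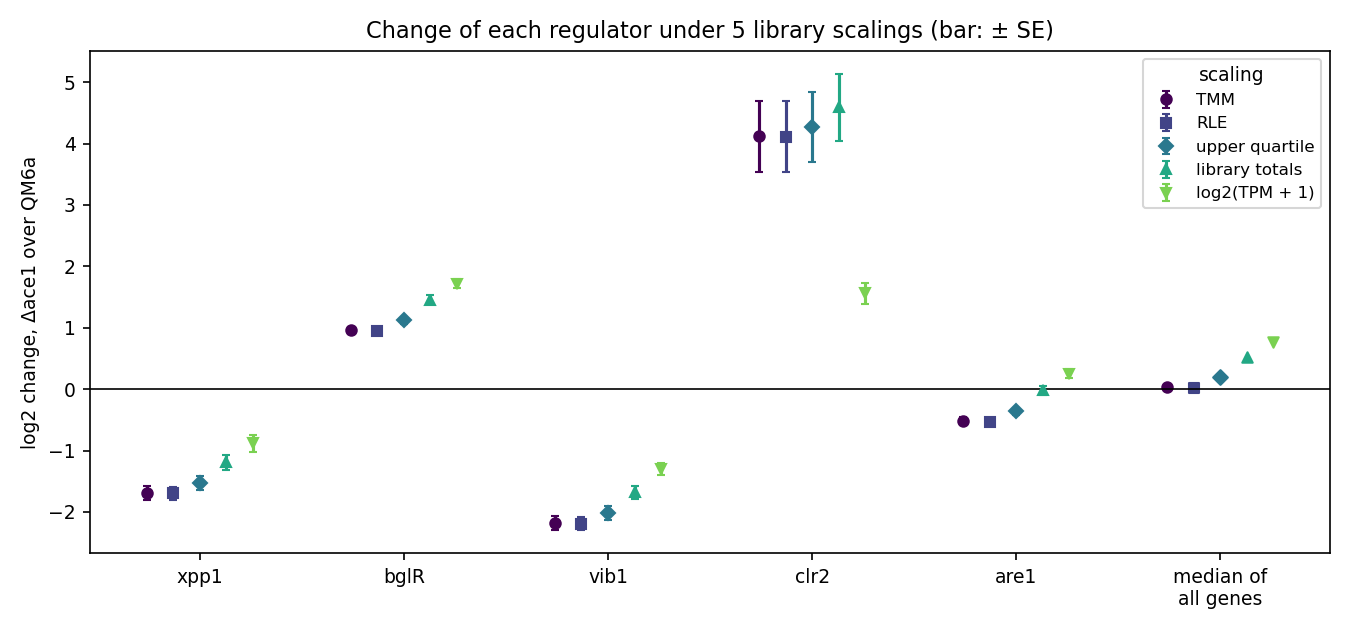
Log2 change of Δace1 over QM6a for each gene under 5 library scalings, with the standard error as bars, and the median change of all genes under the same scalings at the right. The values shift upward together with the median from TMM to log2(TPM + 1), except for clr2 on the last scale, whose low TPM is compressed by the added 1 (1.56 in place of 4.12), and are1 crosses 0.

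The order of the 5 transcripts per length was the same in both strains, by TPM and by TMM-scaled counts per kilobase. In QM6a the bglR transcript was highest at 64.9 to 68.3 TPM, followed by are1 at 53.0 to 54.6, xpp1 at 31.2 to 45.8, vib1 at 20.2 to 23.7 and clr2 at 0 to 0.209 TPM. In Δace1 bglR held 208.9 to 226.5 TPM, are1 62.0 to 67.7, xpp1 19.5 to 22.4, vib1 7.81 to 8.52 and clr2 1.85 to 2.34 TPM. No neighbours in either order overlapped across their libraries. Taken as ratios of mean TPM, the steps between bglR, are1, xpp1 and vib1 were wider in Δace1 than in QM6a. Among all 9113 genes, 82.1% had a lower mean TPM than bglR in QM6a and 91.9% in Δace1. For xpp1 this share went from 72.1% to 41.6%, for vib1 from 57.4% to 25.7%, for are1 from 78.5% to 72.3% and for clr2 from 8.4% to 15.9%.

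Ratios between these transcripts within a library do not depend on library scaling. The bglR transcript was 3.38, 2.75 and 3.20 times as abundant per length as vib1 in the QM6a libraries and 28.6, 28.6 and 24.5 times in the Δace1 libraries. This log2 ratio, computed on counts, was 3.13 higher in Δace1 with a standard error of 0.11, the widest of the 6 pairs that could be formed. The ratio of bglR to are1 went from 1.29, 1.19 and 1.20 per length in QM6a to 3.35, 3.54 and 3.37 in Δace1, a log2 difference of 1.48 with a standard error of 0.04.

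The ratio of xpp1 to bglR per length was 0.458, 0.652 and 0.705 in QM6a and 0.0929, 0.101 and 0.0931 in Δace1, a log2 difference of -2.64 with a standard error of 0.20. Both genes that fell under all scalings were also lower against are1, with a log2 difference of -1.65 for vib1 (standard error 0.09) and -1.16 for xpp1 (standard error 0.17). The pair that changed least was xpp1 over vib1, with a log2 difference of 0.49 and a standard error of 0.19. Its per-length ratio was 1.55, 1.79 and 2.26 in QM6a and 2.65, 2.87 and 2.29 in Δace1, so that QM6a replicate 3 nearly reached the lowest Δace1 library. All 6 pairs were free of overlap between strains, as were 83.2% of all pairs of tested genes with counts in every library, so this too is near the background. A two-sided exact permutation test gave p = 0.1 for each pair, adjusted p = 0.1 over the 6 pairs, which is the smallest p that 3 against 3 libraries allow. The pairs with clr2 were not formed, since it had no count in 2 QM6a libraries.

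**Figure D3:**
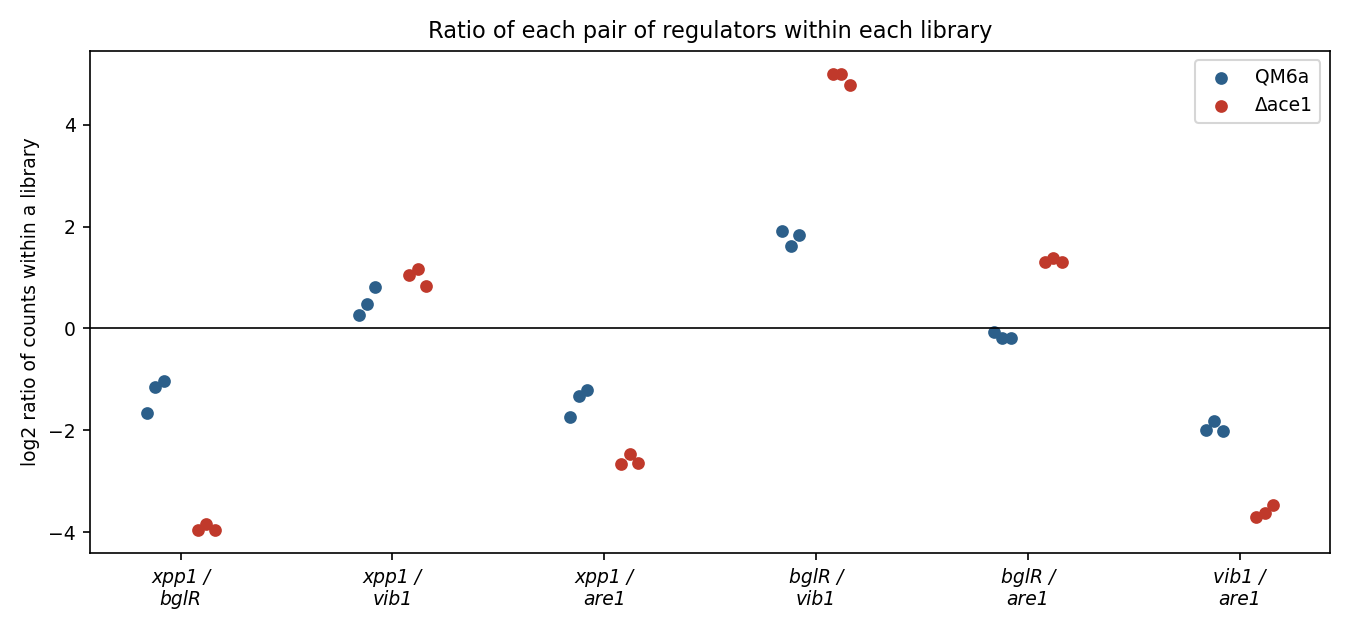
Log2 ratio of the estimated counts of each pair of genes within each library, with QM6a in blue and Δace1 in red; clr2 is left out. The ratio of bglR to vib1 rises from between 1.62 and 1.92 to between 4.78 and 5.0, and that of xpp1 to vib1 differs least.

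Among the listed regulators of T. reesei, vib1 and xpp1 lay at the low end with TMM scaling, and the fitted change of clr2 at the high end. The comparison list held xyr1, ace1, ace3, cre1, hap2, hap3, hap5, pac1, lae1 and vel1, which are regulators of carbon use, enzyme genes, pH response and light or development. Leaving out the deleted gene ace1, 5 of the other 9 rose with TMM scaling, 3 fell and 1 was not called, where 41.2% of all tested genes were higher and 39.5% lower. Under all 5 scalings 5 rose and 1 fell, beside 40.4% and 16.9% of all tested genes. The median log2 change of these 9 was 0.21 with TMM, beside 0.03 for all tested genes. Of the 14 regulators other than ace1, vib1 and xpp1 had the lowest log2 changes with TMM, below lae1 at -1.28 (standard error 0.22) and the carbon catabolite repressor gene cre1 at -1.04 (standard error 0.07). The rise of bglR was between that of ace3, 0.61 (standard error 0.09), and that of vel1, 1.27 (standard error 0.09). The fitted change of clr2, 4.12 (standard error 0.58), was above that of pac1, 1.93 (standard error 0.08), and of the activator gene xyr1, 1.53 (standard error 0.06). The place of clr2 carries little weight, since it was tested only through its Δace1 counts and rests on 3 QM6a counts. On log2(TPM + 1) clr2 was at 1.56, below bglR at 1.72.

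**Figure D4:**
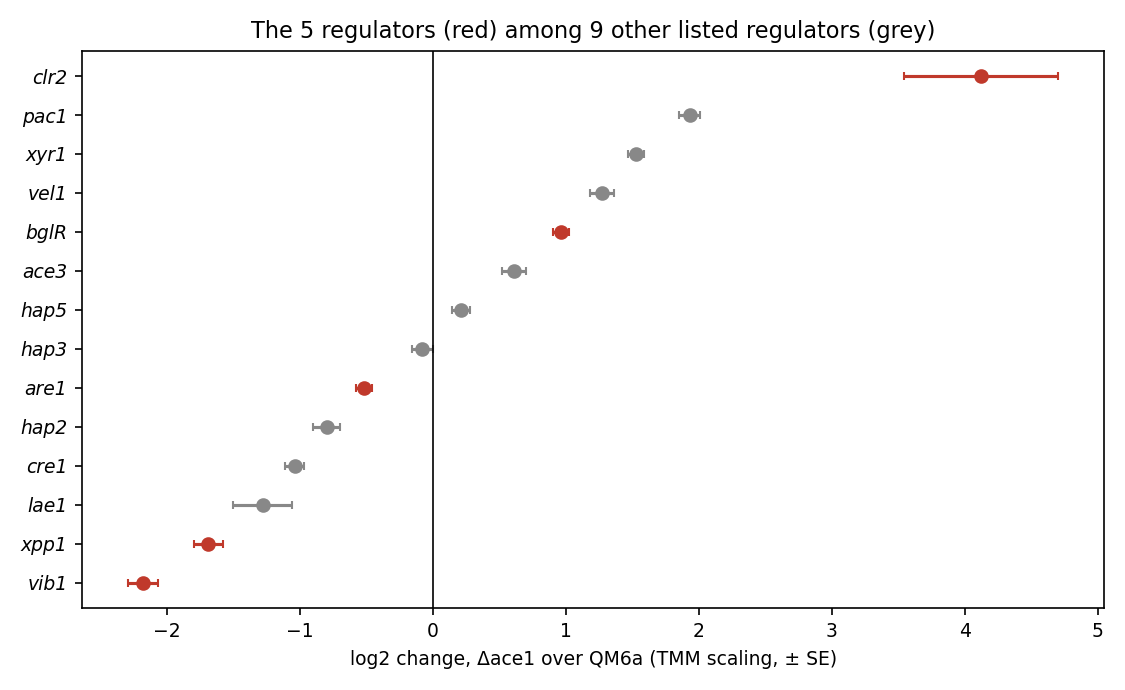
Log2 change of Δace1 over QM6a with TMM scaling and its standard error for the 5 genes (red) and the 9 other listed regulators without ace1 (grey), in order. The transcripts of vib1 and xpp1 are at the low end and clr2, whose fitted value rests on 3 QM6a counts, at the high end; are1 at -0.52 is above 0 on log2(TPM + 1).

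Enzyme genes of the kind these factors are known to act on were set beside them. Of 7 listed beta-glucosidase genes 6 were tested and all 6 rose, with a median log2 change of 2.30, where 41.2% of all tested genes were higher. Of the 6, 2 passed the filter only through Δace1, since not all of their QM6a libraries reached it, so the filter favoured a rise in them. The changes of all 6 ranged from 1.35 for cel1b (standard error 0.18) to 5.92 for cel3b (standard error 0.12), and thus each was above the 0.96 of bglR. The extracellular beta-glucosidase gene cel3a was not tested, since its libraries held 16, 6 and 6 counts without ace1 against 1, 0 and 0 with it.

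The xylanase genes xyn1, xyn2 and xyn3, the class of gene that Xpp1 is known to repress, had at most 3 counts in any library of either strain. At this depth no difference in them could be detected. The only tested genes of the xylan list, xyn4, abf1, glr1 and bxl1, entered the test through their Δace1 counts alone, and so had to differ. Of xyn4, a library held 74 to 91 counts in Δace1 and 4 to 6 in QM6a. Of 13 listed cellulase genes and cellulose-active proteins 4 were tested, 2 higher and 2 lower with TMM, and under all 5 scalings 2 were higher and 0 lower. Both higher ones, cel6a and swo1, passed the filter only through their Δace1 counts, so the filter favoured a rise in both. Their QM6a counts were 4, 1 and 5 for cel6a and 11, 14 and 15 for swo1. The transcript of the cellobiohydrolase gene cel7a reached 8, 4 and 1 counts in the deletion strain against 4, 3 and 2 in the wild type, near the floor of 3 counts in both.

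In the order of the reference annotation clr2 lay between TRIREDRAFT_3405 and TRIREDRAFT_59364. The first is crt1, a sugar transporter gene named here from the literature, with 741, 596 and 501 counts in the deletion strain against 4, 9 and 5 in the wild type. It rose from 1.13 ± 0.536 to 86.6 ± 9.41 CPM (SD over 3 libraries per strain), which is 6.26 ± 0.19 (SE) as a log2 change (edgeR quasi-likelihood test, adjusted p = 1.19e-14). TRIREDRAFT_59364, which has no symbol, held 351, 327 and 293 counts in the deletion strain against 15, 21 and 20 in the wild type. It rose from 3.49 ± 0.746 to 46.0 ± 0.723 CPM, which is 3.72 ± 0.15 (SE) as a log2 change (edgeR quasi-likelihood test, adjusted p = 6.61e-13). Like clr2, TRIREDRAFT_3405 passed the filter on low counts only through its Δace1 libraries and so had to differ, whereas TRIREDRAFT_59364 also passed it in QM6a. In counts, each of the 3 transcripts was higher in every Δace1 library than in any QM6a library.

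With TMM scaling the higher transcripts around clr2 did not reach the third gene on either side. Reaching out to 3 genes on each side was chosen after the values of the nearest neighbours were seen. The second gene on each side, TRIREDRAFT_106164 and TRIREDRAFT_106168, had at most 1 count in a library and was not tested. The third, TRIREDRAFT_47069 and TRIREDRAFT_76919, had log2 changes of -0.26 and -0.45 with TMM, standard errors 0.08 and 0.07, which were not called lower under every scaling. Library totals shift the median change by 0.50 from TMM, more than the size of either fall. The direction of these genes, and so the extent of the stretch, is not settled.

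Around the other 4 genes the neighbours had no common direction with TMM scaling. The fall of xpp1 lay between TRIREDRAFT_29108, which was lower at -0.94 with TMM but not under all scalings, and TRIREDRAFT_65360, which rose by 1.94 (standard error 0.14). The neighbours of bglR were TRIREDRAFT_111951, which rose by 1.15 (standard error 0.23), and TRIREDRAFT_111953, at -1.0 with TMM (standard error 0.10) and not lower under all scalings. Beside vib1, TRIREDRAFT_37262 was not called, at -0.01, and TRIREDRAFT_1679 was at -0.96 with TMM and not lower under all scalings. Beside are1, TRIREDRAFT_41248 rose by 0.93 (standard error 0.22) and TRIREDRAFT_59668 was not called, at -0.14. Within 3 genes of any of the 5 genes, 26 of 30 neighbours were tested, and 12 were higher and 11 lower with TMM, near the shares of all tested genes. The higher ones were all called higher under all 5 scalings, whereas most of the lower ones were not called lower under all of them. Of all tested genes 40.4% were higher and 16.9% lower under all 5.

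**Figure D5:**
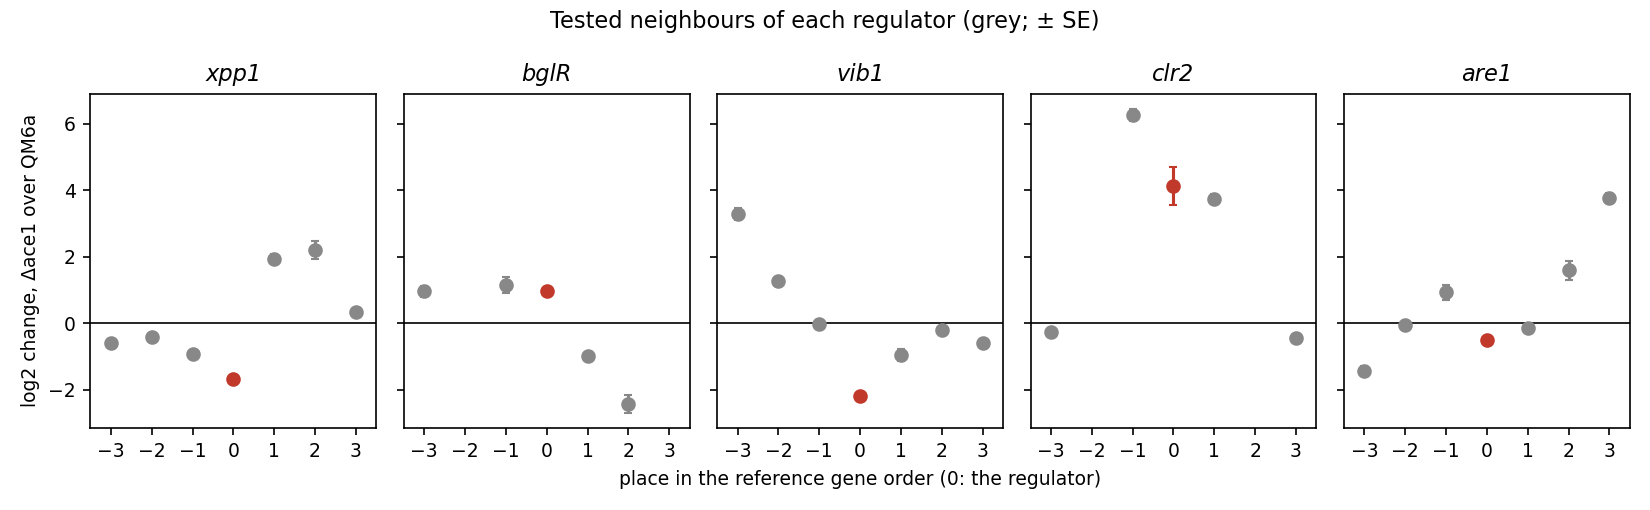
Log2 change with TMM scaling and its standard error for each of the 5 genes (red, place 0) and its tested neighbours up to 3 places away in the reference gene order (grey); untested neighbours are left out. Beside clr2 both nearest neighbours lie above 0, at 6.26 and 3.72, and beside xpp1 the nearest lie at -0.94 and 1.94; are1 at -0.52 and small negative values are above 0 under some other scalings.

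Other genes had profiles very like those of 4 of the 5. Likeness was measured as the root mean square difference of centred log2 CPM over the 6 libraries, among genes with a mean of at least 10 CPM, so that a gene of the same change and the same small deviations comes first. For are1 the nearest was TRIREDRAFT_57603, at a difference of 0.009, with 389 ± 7.79 CPM in QM6a and 271 ± 8.88 in Δace1. The nearest with a symbol was the kinase gene cot1, at 0.037 and only at rank 14 of 6552 genes, since few genes have a symbol. As with are1, the fall in CPM of these genes depends on the scaling.

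The nearest profile to bglR was that of TRIREDRAFT_55559, at a difference of 0.028, with 8.54 ± 0.391 CPM in QM6a and 16.8 ± 0.693 in Δace1. The nearest to bglR with a symbol was TRIREDRAFT_64608, listed as crec, at 0.062 and only at rank 30 of 6552 genes. It rose from 52.0 ± 3.64 to 108.5 ± 2.32 CPM. To vib1 the nearest was TRIREDRAFT_53972, at 0.040, which fell from 92.3 ± 5.58 to 21.0 ± 1.49 CPM. The hexokinase gene hxk1 was the nearest to vib1 with a symbol, at 0.135 and only at rank 100 of 6552 genes.

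For xpp1 the nearest was TRIREDRAFT_78956, at a difference of 0.081, which fell from 48.7 ± 6.79 to 15.5 ± 1.00 CPM. The ribosomal protein gene rps30 was the nearest with a symbol, at 0.106 and at rank 8 of 6552 genes. Among the genes searched none came close to clr2, whose nearest, TRIREDRAFT_64827, differed by 0.541 on the log2 scale. The mean CPM of clr2 itself was below the minimum required of those genes, so genes as low as clr2 were left out. Whether any of them had a like profile was not tested. The clr2 values of libraries without counts also rest on the count added before taking logs. These distances describe 6 libraries in which the strain accounts for most of the pattern, and many genes share it.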

How the data were processed

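RNA from 3 QM6a and 3 Δace1 samples was sequenced. The submitters' processing notes name kallisto 0.43.1, DESeq2 1.14.1 and FastQC 0.11.5. Which transcripts and which genome build the authors used is not given in the sources used here. Each sample's deposited table holds an estimated count and a TPM value per transcript, per the file headers. The deposited series table holds a normalized signal per locus tag, a count divided by 1 factor per sample. Multiplied by that factor, 92.5% to 96.1% of its values were whole within 0.05. No deposited table pairs transcripts with locus tags, so they were joined by their counts in all 6 samples; the 5 genes each had a single exact partner, after rounding. The lengths are coding lengths (99.1% are multiples of 3).

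Estimated counts were rounded and tested with edgeR 4.0.16 in R 4.3.3 (quasi-likelihood, TMM, filterByExpr, robust estimation) over all 7769 genes kept, without a replicate block. The standard error was taken as the size of the change over the square root of F. The alternatives were DESeq2 1.42.0, other scalings and filters, limma 3.58.1 on logged TPM (with 1 or 0.1 added) or logged normalized counts (with 1 added), a block for the replicate number, and the omission of single libraries. The test on recovered reads, which called 6274 genes as the estimated counts did, and the calls shared by 5 scalings were added after seeing the data. Procedures were tested on simulated data in which, unlike here, few genes changed, so the choice of scaling was not tested by them. The gene order of the reference table (assembly v2.0) was used only for neighbours, and neighbours were not taken across a fall in start coordinate.

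The genes and lists were chosen with earlier results of these data known. Named beside the 5 genes are ace1, the other regulators, listed enzyme genes, the nearest neighbours, and the nearest profiles; cel1b, cel3a, cel7a, the xylanase genes and the neighbours further out were named after their values were seen. A list of 11 symbols of nitrogen genes matched 0 genes of the reference table and was not used. Of the 10 pairs of ratios planned, 6 were formed. No sequence is printed, since the sources used here hold none.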

Additional observations from a re-analysis of the deposited data

How the results depend on the processing

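The changes of xpp1, bglR, vib1 and clr2 kept their direction and call under every alternative that could be fitted, and clr2 had no value with at least 50 counts in 3 samples, which leaves it out. In the other fits with a filter on low counts, clr2 passed only through its Δace1 libraries, so those calls of it add no support. The change of are1 was -0.02 and not called with library totals, and 0.25 and called higher on both log2(TPM + 1) and log2(TPM + 0.1). The scalings differ by a shift of the median gene, and the cause of that shift was not tested. It also moved the number of genes called: 5461 and 5444 were higher on log2(TPM + 1) and log2(TPM + 0.1) against 3202 with TMM, while 1326 and 1320 were lower on these scales and 1850 with library totals, against 3072. Without single libraries the change of xpp1 ranged from -1.82 (without QM6a replicate 1) to -1.59, that of bglR from 0.93 to 1.01, that of vib1 from -2.24 to -2.11, that of are1 from -0.54 to -0.50, and that of clr2 from 3.54 to 7.52. The difference between strains in the log2 ratio of xpp1 to vib1 ranged from 0.37 to 0.64. With a replicate block the changes were -1.68, 0.96, -2.17, 4.12 and -0.52 for xpp1, bglR, vib1, clr2 and are1, and no call of these changed. The numbers do not pair the samples: the deviations of same-numbered libraries correlated by -0.011, 0.026 and -0.043, and not every library correlated best with its own number. Depth limits clr2, the xylanases and most cellulases, which lie near the floor of 3 counts.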
